A study of Mus musculus with 2 samples.

Results

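Acute-phase and secreted defence proteins were examined through 8 genes, Hp, Orm1, Saa3, Clu, C3, F7, Slpi and Lcn2, out of 22020 gene symbols in the deposited table. The genes were chosen by name because their RPKM (read number corrected for the length of the transcript and the total of the library) was higher in the Utx/p53 DKO library than in the p53 KO library, so that increase is described below and not tested. Each of the 8 symbols had 1 transcript in the table. The cells were LSK cells, a bone marrow fraction sorted as lineage-negative, c-Kit-positive and Sca-1-positive that holds the blood stem cells and early multipotent progenitors. By their labels, the Utx/p53 DKO mice were knockouts of p53 and of Utx (Kdm6a, an X-linked histone H3 lysine 27 demethylase) and the p53 KO mice knockouts of p53 alone, so the p53 knockout is common to both groups. DKO cells and p53 KO cells below mean the libraries so labelled. Both were 8-week-old mice on a C57BL/6 background, and the labels used here say neither how each gene was deleted nor how many mice gave cells. There was 1 library per genotype: no value below has a replicate, no test was possible, and intervals cover counting error alone.

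Acute-phase proteins are secreted proteins whose plasma level climbs in infection and injury, made mainly by liver cells in answer to IL-6 and IL-1 acting through STAT3, C/EBP and NF-kB factors. Several are also made by white blood cells: neutrophil precursors are known to make haptoglobin and lipocalin 2 and store them in granules, and macrophages make C3, SLPI and serum amyloid A3. Together these proteins bind haemoglobin, iron carriers and lipids, tag microbes, clot plasma and block the proteases that neutrophils release.

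The file's header gave 19926294 reads for the DKO library and 17088105 reads for the p53 KO library. Kdm6a was at 1.26 RPKM in DKO cells and 5.32 RPKM in p53 KO cells, a ratio of 0.236 (95% interval 0.193 to 0.287). Trp53, the p53 gene, had transcript in both libraries, at 12.9 RPKM from 456 reads in DKO cells and 19.4 RPKM from 587 reads in p53 KO cells. The labels do not say which part of either gene is deleted, and a value over the whole transcript does not show whether p53 was functional, so the p53 knockout rests on the labels. Of the sort markers, Kit was at 16.02 RPKM in DKO and 64.2 RPKM in p53 KO cells, and Ly6a, which encodes Sca-1, at 281 and 255 RPKM in the same order. The labels call the cells haematopoietic stem cells. Stem and progenitor markers were present in both libraries and mostly lower in DKO cells, as described with the other markers. Measured genes were the 11356 whose mean reached 1 RPKM, and over them the median difference of log2(RPKM + 1), DKO minus p53 KO, was -0.24. At a 2-fold rule on that scale, 750 genes (6.6%) were higher and 1528 (13.5%) lower in DKO cells. That split depended on scaling: it was 1873 higher and 712 lower with the authors' gfold normalization constants, 1012 and 1086 after centring on the median of the better expressed genes, 949 and 1251 with equal upper quartiles, and 498 and 2709 with equal totals of RPKM. The authors' constants raised the all-gene median by 0.52, to 0.28. The 8 genes are set against the all-gene median below. In bulk RNA, more cells of a type and more RNA per cell cannot be told apart.

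All 8 genes were higher in the DKO library, by 11.8-fold to 35.4-fold, and they kept the same order of level in both libraries. In DKO cells their summed RPKM was 6948, against 367 in p53 KO cells. Their reads made up 0.860% of the DKO reads (exact Clopper-Pearson 95% interval 0.856 to 0.864%) and 0.0434% of the p53 KO reads (0.0424 to 0.0444%). From high to low the order was Hp, Slpi, Lcn2, C3, Clu, F7, Orm1 and Saa3. In DKO cells the counting intervals of neighbours in that order did not overlap, and in p53 KO cells they overlapped for F7 with Orm1 and for Orm1 with Saa3. Hp, Slpi and Lcn2 together held 93.3% of the 8 genes' summed RPKM in DKO cells and 95.3% in p53 KO cells. All 8 passed the filter of a mean of at least 1 RPKM, Saa3 through its DKO value alone.

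**Figure D1:**
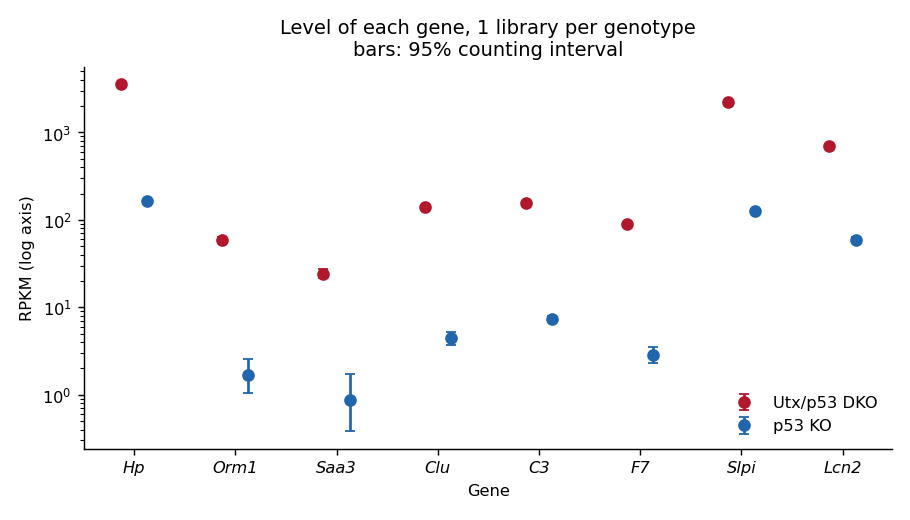
RPKM (log axis) of each gene in the Utx/p53 DKO library (red) and the p53 KO library (blue), 1 library per genotype, with bars for the exact 95% counting interval. Every red point lies above its blue point, from Hp at 3562 RPKM in DKO and 163 RPKM in p53 KO cells to Saa3 at 24.3 and 0.882 RPKM.

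Among the plasma carriers, haptoglobin was the most abundant and orosomucoid had the largest ratio. Hp encodes haptoglobin, which binds haemoglobin freed from red cells. It stood at 3562 RPKM in DKO cells, the level of rank 10 among the measured genes, against 163 RPKM and rank 316 in p53 KO cells. Its 95463 DKO reads and 3738 p53 KO reads gave a ratio of 21.9 (95% interval 21.2 to 22.6). Orm1 encodes alpha-1-acid glycoprotein, a lipocalin that carries lipids and drugs in plasma. It was at 59.4 RPKM from 909 reads in DKO cells and at 1.68 RPKM from 22 reads in p53 KO cells, a ratio of 35.4 (23.3 to 56.8). Orm1 shares sequence with Orm2 and Orm3, so its reads may be split between copies. Orm2 had 29 reads in DKO and 3 in p53 KO cells, a ratio of 8.29 (2.57 to 42.5), and Orm3 had 7 and 6 reads, so most reads of the family were assigned to Orm1 in both libraries.

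Saa3 encodes serum amyloid A3, in mice the family member made largely outside the liver, by macrophages and fat. It had 257 reads (24.3 RPKM) in DKO cells and 8 reads (0.882 RPKM) in p53 KO cells, a ratio of 27.5 whose interval of 13.8 to 64.5 is the widest of the 8. The liver forms had few reads in both libraries. Saa1 had 0 reads in DKO cells, which allows up to 0.248 RPKM at 3 reads, and 9 reads in p53 KO cells. Saa2 had 0 reads in DKO and 1 read in p53 KO cells, and Saa4 was listed at 0 in both libraries. Saa1 and Saa2 are close to identical, so each value is uncertain.

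The genes of complement and clotting were also higher in the DKO library. Clu encodes clusterin, an extracellular chaperone that also blocks the terminal complement complex. It was at 139 RPKM from 4995 reads in DKO cells and at 4.40 RPKM from 136 reads in p53 KO cells, a ratio of 31.5 (26.6 to 37.6). On the log2(RPKM + 1) scale Clu had the largest difference of the 8, 4.69. C3 encodes the protein on which all complement routes converge. It was at 154 RPKM from 15767 reads in DKO cells and at 7.38 RPKM from 647 reads in p53 KO cells, a ratio of 20.9 (19.3 to 22.6). F7 encodes coagulation factor VII, the protease that starts clotting when it meets tissue factor. It was at 89.6 RPKM from 3319 reads in DKO cells and at 2.86 RPKM from 91 reads in p53 KO cells, a ratio of 31.3 (25.4 to 39.0). By level, Clu, F7 and C3 took ranks 475, 767 and 421 among the measured genes of the DKO library, against 8235, 9328 and 6572 in the p53 KO library.

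The antibacterial genes had the smallest ratios and, after Hp, the highest levels. Slpi encodes an inhibitor of neutrophil elastase and cathepsin G that also kills bacteria. It was at 2216 RPKM from 38681 reads in DKO cells and at 127 RPKM from 1905 reads in p53 KO cells, a ratio of 17.4 (16.6 to 18.2). Lcn2 encodes lipocalin 2, which captures the siderophores that bacteria use to take up iron. It was at 704 RPKM from 11970 reads in DKO cells and at 59.5 RPKM from 868 reads in p53 KO cells, a ratio of 11.8 (11.04 to 12.7). Lcn2 is a protein of neutrophil specific granules, and other genes of those granules differed from it: Ngp was at 1235 RPKM in DKO and 530 RPKM in p53 KO cells, Camp at 84.5 and 29.6 RPKM, and lactoferrin (Ltf) at 5.42 and 32.9 RPKM. Lactoferrin was therefore lower in the DKO library while Lcn2, Ngp and Camp were higher. Of 21 measured markers of granulocyte precursors and neutrophils, 13 were at least 2-fold higher, 1 lower and 7 within 2-fold on the log2(RPKM + 1) scale. Those within 2-fold included Pglyrp1 (27.0 RPKM in DKO, 39.1 in p53 KO cells), Mmp8 (5.77 and 6.39) and Mmp9 (0.751 and 1.55).

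**Figure D2:**
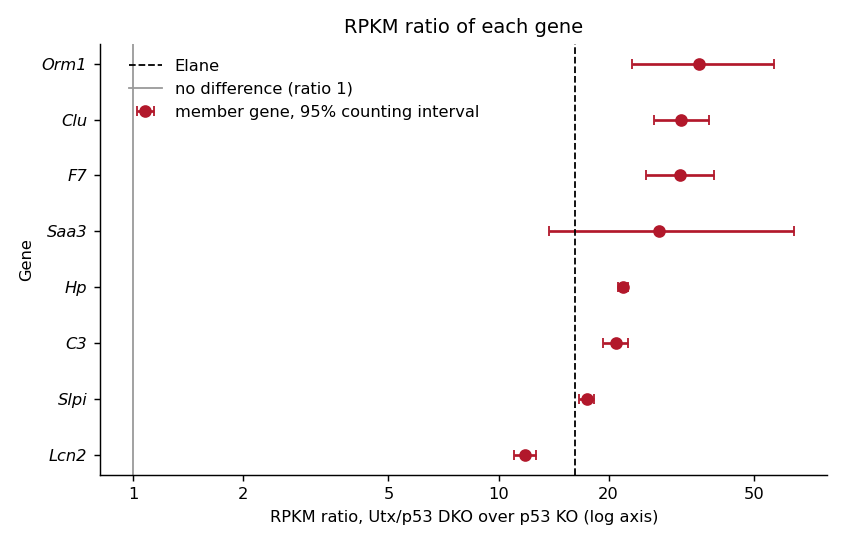
Ratio of RPKM, Utx/p53 DKO over p53 KO (log axis), of each gene with its exact 95% counting interval. The dashed line marks the ratio of Elane, 16.2, and the grey line a ratio of 1. Orm1, Clu and F7 lie farthest to the right and Lcn2 is the gene left of the dashed line.

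Neighbouring ratios mostly could not be separated by counting error. Sorted by ratio, the intervals of adjacent genes overlapped from Orm1 through Clu, F7, Saa3, Hp and C3, and those of C3 and Slpi and of Slpi and Lcn2 did not. Genes further apart in that order could be separated: the intervals of Orm1, Clu and F7 lay above those of Hp and C3. Only the wide interval of Saa3 joined these groups. The 4 genes with the lowest p53 KO levels, Saa3, Orm1, F7 and Clu, were also those with the 4 highest ratios, a relation in which both sides share the p53 KO value. Levels were also expressed per 100 RPKM of Elane, the neutrophil elastase gene, within each library, a measure that does not depend on scaling between libraries. Elane itself was at 26714 RPKM in DKO and 1649 RPKM in p53 KO cells, a ratio of 16.2. Slpi, the inhibitor of elastase, was at 8.30 per 100 RPKM of Elane in DKO and 7.72 in p53 KO cells. Hp was at 13.3 and 9.86 on that measure and C3 at 0.577 and 0.447, again with DKO given before p53 KO. Lcn2 was the gene with a lower value in DKO cells, 2.64 against 3.61 in p53 KO cells. Clu, F7, Saa3 and Orm1 were 1.70-fold to 2.19-fold higher in DKO cells per unit of Elane. In the authors' deposited table, whose log2 fold changes use the gfold constants, the values for the 8 genes ran from 4.16 (Lcn2) to 5.69 (Orm1). The GFOLD value, a shrunken log2 fold change, ran in the authors' deposited table from 3.98 (Saa3) to 5.29 (Clu). With 1 library per genotype, the q-value was 1 for every transcript, so it sets no gene apart and is not read as a result.

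Promoter sequences are shown for 3 of these genes, C3 and Slpi because they hold a match to the C/EBP motif searched and Lcn2 as the gene with the smallest ratio. The RefSeq promoter table of build GRCm38.p6 held 5 of the 8 genes, Saa3, C3, F7, Slpi and Lcn2, and not Hp, Orm1 or Clu. Each line gives the 250 bases before the annotated start, 5′ to 3′ on the gene's strand, with matches to the C/EBP form TTNNGNAAT, on either strand, in capitals.
C3 (GRCm38.p6, chr17:57228137-57228386, minus strand): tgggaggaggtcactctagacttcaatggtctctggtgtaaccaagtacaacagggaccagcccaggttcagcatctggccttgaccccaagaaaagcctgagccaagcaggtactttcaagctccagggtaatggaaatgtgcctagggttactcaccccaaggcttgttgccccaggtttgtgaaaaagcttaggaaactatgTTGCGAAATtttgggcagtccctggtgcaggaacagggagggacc
Slpi (GRCm38.p6, chr2:164356508-164356757, minus strand): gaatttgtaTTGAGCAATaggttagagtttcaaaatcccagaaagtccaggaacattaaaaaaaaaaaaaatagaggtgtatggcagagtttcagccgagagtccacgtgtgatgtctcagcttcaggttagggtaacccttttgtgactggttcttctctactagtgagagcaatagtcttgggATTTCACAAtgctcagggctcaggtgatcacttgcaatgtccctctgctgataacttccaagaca
Lcn2 (GRCm38.p6, chr2:32387740-32387989, minus strand): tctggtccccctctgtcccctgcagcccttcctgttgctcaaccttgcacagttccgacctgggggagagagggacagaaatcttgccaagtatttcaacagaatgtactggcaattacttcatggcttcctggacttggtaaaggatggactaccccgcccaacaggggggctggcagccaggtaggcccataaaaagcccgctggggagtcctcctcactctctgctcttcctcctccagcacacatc
The C3 match began 45 bases before the start, and the Slpi matches began 241 and 65 bases before it. This form stood in 2 of the 5 promoters and in 10.2% of the 32851 promoters in the table. The STAT form TTCNNNGAA (7.02% of all promoters), the NF-kB consensus (7.25%), the PU.1 form GAGGAAGT (2.44%) and the TATA form TATAAA (12.4%) had no match in the 5 windows, which says only that these letters are absent there.

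**Figure D3:**
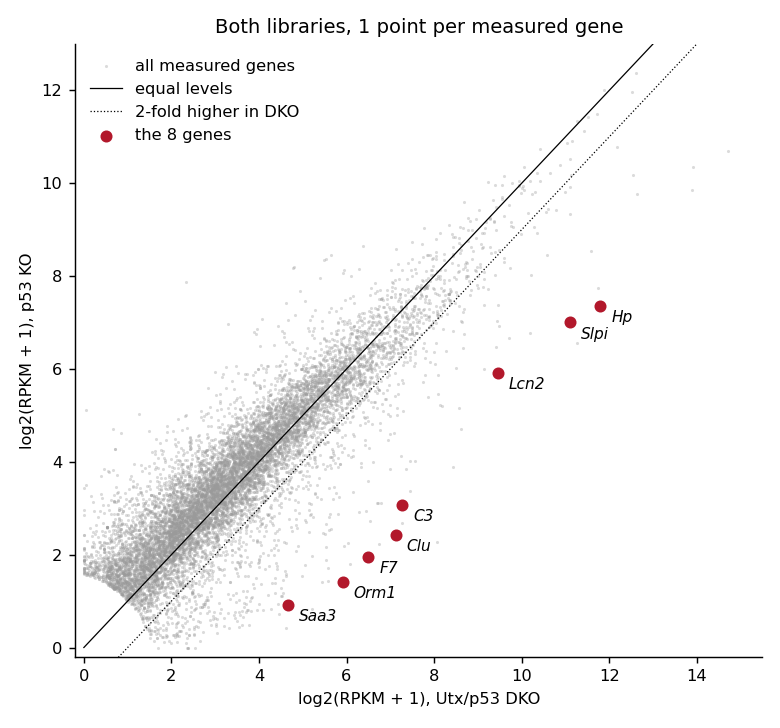
Each of the 11356 measured genes by its log2(RPKM + 1) in the Utx/p53 DKO library (horizontal axis) and the p53 KO library (vertical axis), with the 8 genes in red. The 8 points lie to the right of the dotted line of a 2-fold higher DKO level, from Saa3 at low to Hp at high levels.

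Among all measured genes, the 8 lay between ranks 3 (Clu) and 34 (Lcn2) of the increase. Their median difference of log2(RPKM + 1) was 4.33, against -0.24 over all measured genes, and they differed from 3.54 to 4.69. An increase of at least 8-fold on that scale was seen for 71 genes (0.625%), the 8 among them, as follows from their choice. The genes nearest to them in both levels, by the distance in the plane of log2(RPKM + 1) of the 2 libraries, came from several families. Nearest to Hp was the surface protein gene Ly6c1, at 3446 RPKM in DKO and 213 RPKM in p53 KO cells, followed by Slpi. Nearest to Slpi was Chi3l3, which encodes a myeloid lectin related to chitinases, at 2452 and 92.7 RPKM, followed by Hp. Nearest to F7 was Thbs4, a matricellular thrombospondin, at 92.7 and 2.72 RPKM, at a distance of 0.072. Tmem178 was second nearest to F7 and to Clu, and Ly6k was nearest to Clu and second nearest to C3. The closest to C3 was Cd177, a neutrophil surface protein gene, at 175 and 9.31 RPKM. For Orm1 the nearest were Nnmt and Mogat2, for Saa3 Olr1 and Rnase10, and for Lcn2 the antioxidant enzyme genes Mgst1 and Prdx5.

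The 8 genes lie on 6 chromosomes, and most of the adjacent measured genes differed by less than 2-fold. Unmeasured genes lay between some of them. Of the 16 adjacent measured genes, 1 on each side, 4 were higher and 2 lower by the 2-fold rule, with a median difference of -0.05. Among the 4 higher, Orm2 and Mcf2l passed the filter through their DKO values alone, so their place in the count follows in part from the filter. Orm2 lies beside Orm1 and shares sequence with it. Rgs3, on the other side of Orm1, was at 1.57 RPKM in DKO and 1.69 RPKM in p53 KO cells. The all-gene shares were 6.6% higher and 13.5% lower (median -0.24). On chromosome 8, F7 had higher neighbours on both sides. F10, which encodes coagulation factor X, the protease that factor VII activates, was at 36.0 RPKM in DKO and 2.89 RPKM in p53 KO cells, a ratio of 12.4 (10.2 to 15.4). Mcf2l, which encodes a guanine nucleotide exchange factor, was at 11.6 and 0.838 RPKM. The next measured gene past F10, Proz, was at 1.11 RPKM in DKO and 1.12 RPKM in p53 KO cells, and the next past Mcf2l, Atp11a, at 4.37 and 2.28 RPKM. Whether counting used strand is not stated in the labels, so reads of overlapping transcripts here cannot be told apart. Beside Lcn2 on chromosome 2, 1110008P14Rik was at 51.3 RPKM in DKO and 9.98 RPKM in p53 KO cells, and Ptges2 on the other side at 4.42 and 2.52 RPKM. Slpi, also on chromosome 2, had lower measured genes on both sides: Stk4 was at 14.4 and 35.1 RPKM and Sdc4 at 7.61 and 37.2 RPKM, DKO before p53 KO. Neither is directly beside Slpi: 11 unmeasured genes lay between it and Stk4 and 2 between it and Sdc4. Around Hp, Txnl4b (33.2 and 37.6 RPKM) and Dhodh (12.3 and 16.4 RPKM) differed by less than 2-fold, as did both neighbours of Saa3, Clu and C3.

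**Figure D4:**
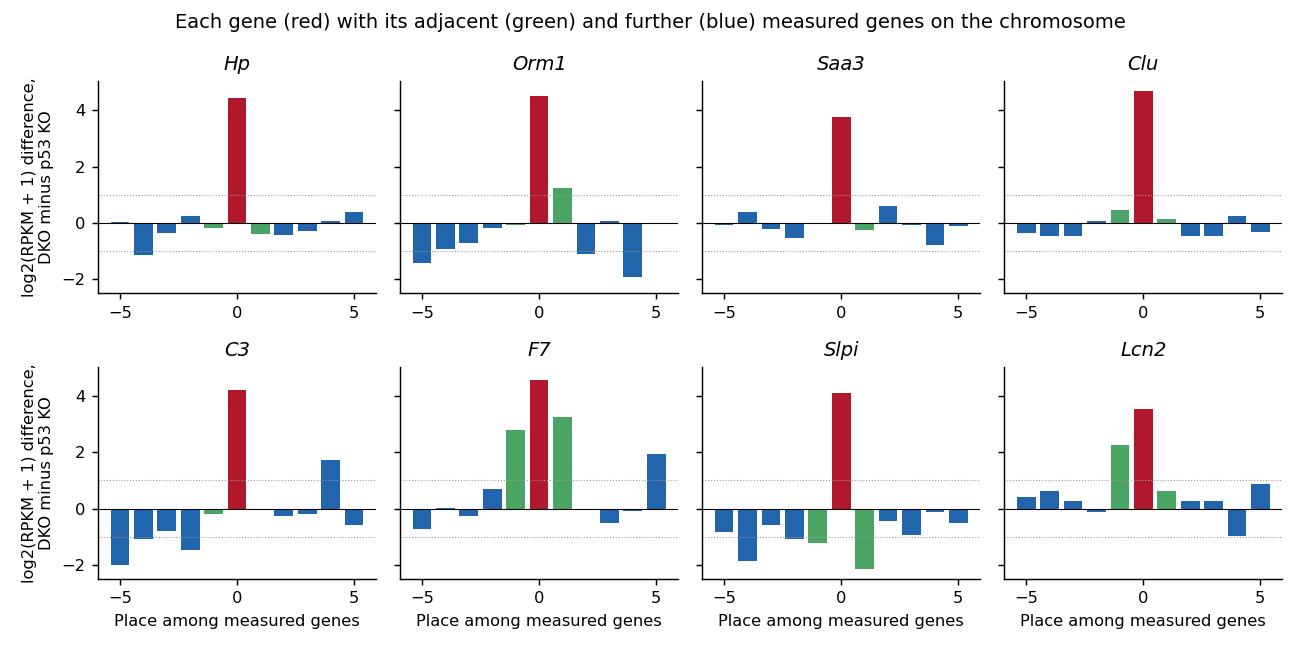
Difference of log2(RPKM + 1), Utx/p53 DKO minus p53 KO, of each of the 8 genes (red, place 0) and of the 5 nearest measured genes on either side of it on its chromosome, the adjacent ones in green and the others in blue; dotted lines mark 2-fold. F7 stands between higher measured neighbours, F10 and Mcf2l, and Slpi between lower measured ones, with unmeasured genes between.

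Most other acute-phase genes were under 1 RPKM in both libraries. Of 27 listed plasma proteins of the acute phase beyond the 8, 21 were under 1 RPKM in both libraries and 6 were measured. Of these 6, 3 were at least 2-fold higher and 0 lower (median difference 0.54, all genes -0.24). The all-gene shares were 6.6% higher and 13.5% lower. With equal totals 2 were higher and 1 lower. With a filter at 5 RPKM 1 was higher and the median was -0.22, and without a filter the median was 0. The higher ones were Cp, the copper-carrying ferroxidase ceruloplasmin, at 6.74 RPKM in DKO and 0.611 RPKM in p53 KO cells, Cd14, the co-receptor for lipopolysaccharide, at 14.9 and 2.58 RPKM, and Orm2. Cp and Orm2 passed the filter through their DKO values alone, so their place in the count follows in part from the filter. Serpina3g, a serine protease inhibitor, was at 67.9 RPKM in DKO and 109 RPKM in p53 KO cells. The fibrinogen chains Fga and Fgb and the C-reactive protein gene Crp were listed at 0 in both libraries.

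Results for the other complement genes depended on scaling. Of 9 measured complement components, 3 were at least 2-fold higher, 1 lower and 5 within 2-fold (median -0.13). Over all measured genes 6.6% were higher and 13.5% lower (median -0.24). With the authors' constants 4 components were higher and 0 lower, and their median was 0.43 while the all-gene median was 0.28. The complement median was also above 0 with equal upper quartiles (0.014, all genes -0.10) and after centring (0.050, all genes -0.056). With a filter at 5 RPKM it was 0.45 (all genes -0.18). Cfd, the factor D protease of the alternative route, had 75 reads (4.08 RPKM) in DKO cells and 1 read in p53 KO cells, thus passing the filter through its DKO value, with a ratio of 64.3 and a counting interval of 11.2 to 2574. C1qb was at 28.6 RPKM in DKO and 7.78 RPKM in p53 KO cells and C1qc at 12.8 and 5.72 RPKM. Properdin (Cfp), which stabilises the C3 convertase, was lower at 5.07 RPKM in DKO and 15.8 RPKM in p53 KO cells. Of 4 measured regulators 0 were at least 2-fold higher and 1 lower (median -0.73): Cd59a, which blocks the membrane attack complex as clusterin does, was at 2.82 and 7.42 RPKM, Cd59b at 0.504 and 1.76, Cd55 at 1.01 and 2.02 and Cr1l at 30.3 and 35.8 RPKM. With the authors' constants 0 of the 4 were lower.

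Genes of clotting and fibrinolysis went both ways. Of 16 measured, 5 were at least 2-fold higher, 4 lower and 7 within 2-fold (median -0.30). The all-gene shares were 6.6% higher and 13.5% lower (median -0.24). With the authors' constants 6 were higher and 3 lower, with a median of 0.13 (all genes 0.28). With equal totals 2 were higher and 5 lower. Of the 5 higher genes, 3 passed the filter through their DKO values alone. Those with the largest differences were F13a1, the fibrin cross-linking factor XIII subunit that macrophages and platelets carry, at 381 RPKM in DKO and 34.7 RPKM in p53 KO cells, and F10, described above. F2rl3, the platelet thrombin receptor PAR4, was at 2.68 and 21.1 RPKM, and the urokinase receptor gene Plaur at 0.647 and 5.11 RPKM. Tissue factor (F3), the partner of factor VII, was listed at 0 in both libraries.

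Relatives of Slpi and Lcn2 differed from each other. Of 14 measured protease inhibitor genes, 6 were at least 2-fold higher and 1 lower (median 0.06). The all-gene shares were 6.6% and 13.5% (median -0.24). With equal totals 3 of the 14 were higher and 2 lower (median -0.23, all genes -0.55). Among the 6 higher genes, 1 passed the filter through its DKO value alone. Wfdc21, listed in the table under its older symbol 1100001G20Rik and, like Slpi, a member of the whey acidic protein family, was at 345 RPKM from 3013 reads in DKO cells and at 13.9 RPKM from 104 reads in p53 KO cells, a ratio of 24.8. Its family members Wfdc17 (listed as Gm11428) and Wfdc18 (listed as Expi) were at 18.9 and 1.29 RPKM in DKO cells and at 30.7 and 1.72 RPKM in p53 KO cells. The cystatins Cstb (54.8 RPKM in DKO, 15.8 in p53 KO cells) and Cst7 (344 and 111 RPKM), inhibitors of lysosomal proteases, were higher, as was Serpinb1a, an inhibitor of neutrophil proteases, at 555 and 216 RPKM. Spint2 was lower at 7.51 and 20.7 RPKM. A list of 17 other lipocalins, which leaves out Orm2 and Orm3, held 2 measured genes. These were Ptgds (0.125 RPKM in DKO, 2.62 in p53 KO cells) and Mup1 (0.311 and 2.78 RPKM), both at least 2-fold lower. Both passed the filter through their p53 KO values alone, so this count follows in part from the filter. Without a filter the median of the list was 0. Orm2, described above, was higher and passed the filter through its DKO value alone. Mup1 has near-identical copies and its value is uncertain.

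Of 17 measured receptors and partners of these proteins, 5 were at least 2-fold higher and 2 lower (median 0.26). The all-gene shares were 6.6% and 13.5% (median -0.24). Counts were 8 and 1 under the authors' constants (all genes 1873 and 712) and 5 and 4 with equal totals (all genes 498 and 2709). Among the 5 higher genes, 2 passed the filter through their DKO values alone, 1 of them Trem2. Without a filter the median was 0. The proteases that Slpi inhibits were among the higher ones: Elane as given above, and the cathepsin G gene Ctsg at 1160.4 RPKM in DKO and 108 RPKM in p53 KO cells. Itgb2, the beta chain of the complement receptors for fragments of C3, was at 90.3 and 18.7 RPKM. Its alpha chain partner Itgam was lower, at 2.62 RPKM in DKO and 7.10 RPKM in p53 KO cells. Trem2, a lipid receptor of myeloid cells that also binds clusterin, was at 6.87 and 0.699 RPKM. Cd163, which in humans takes up haptoglobin bound to haemoglobin, was at 1.56 RPKM in DKO and 3.61 RPKM in p53 KO cells.

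Among inducers of the acute phase, the 3 measured C/EBP factors were higher. The 4 cytokine genes named here had lower values in DKO cells, but Il6 and Il1b were below the filter on low values. Of 24 measured inducers and factors, 5 were at least 2-fold higher, 6 lower and 13 within 2-fold (median -0.29). The all-gene shares were 6.6% higher and 13.5% lower (median -0.24). With the authors' constants 7 were higher and 3 lower (median 0.30, all genes 0.28), against 5 and 9 with equal totals. Among the 6 lower genes, 2 passed the filter through their p53 KO values alone. Cebpa, a factor needed to form granulocytes, was at 15.1 RPKM in DKO and 2.35 RPKM in p53 KO cells, a ratio of 6.43 (5.25 to 7.95). Cebpe, the factor of late granule genes, was at 25.4 and 5.01 RPKM, a ratio of 5.06 (4.12 to 6.28), and Cebpd at 10.01 and 3.13 RPKM. Cebpb, below the filter, had 32 reads in DKO and 4 in p53 KO cells, a ratio of 6.86 (2.43 to 26.7). Il1r2, the decoy receptor for IL-1, was at 10.1 RPKM in DKO and 2.22 RPKM in p53 KO cells, while the signalling receptor Il1r1 was at 1.93 and 7.90 RPKM. Il6 had 0 reads in DKO and 14 reads in p53 KO cells, Il1b was at 0.227 and 0.485 RPKM, Tnf at 0.775 and 1.77 RPKM and Osm, of the IL-6 family, at 3.68 and 9.54 RPKM. Il1b rested on 6 reads in DKO and 11 in p53 KO cells, and the interval of its ratio, 0.142 to 1.38, includes 1. On the log2(RPKM + 1) scale Tnf was within 2-fold. Stat3 was at 20.8 and 28.6 RPKM, and its target and inhibitor Socs3 at 0.479 and 1.805 RPKM.

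**Figure D5:**
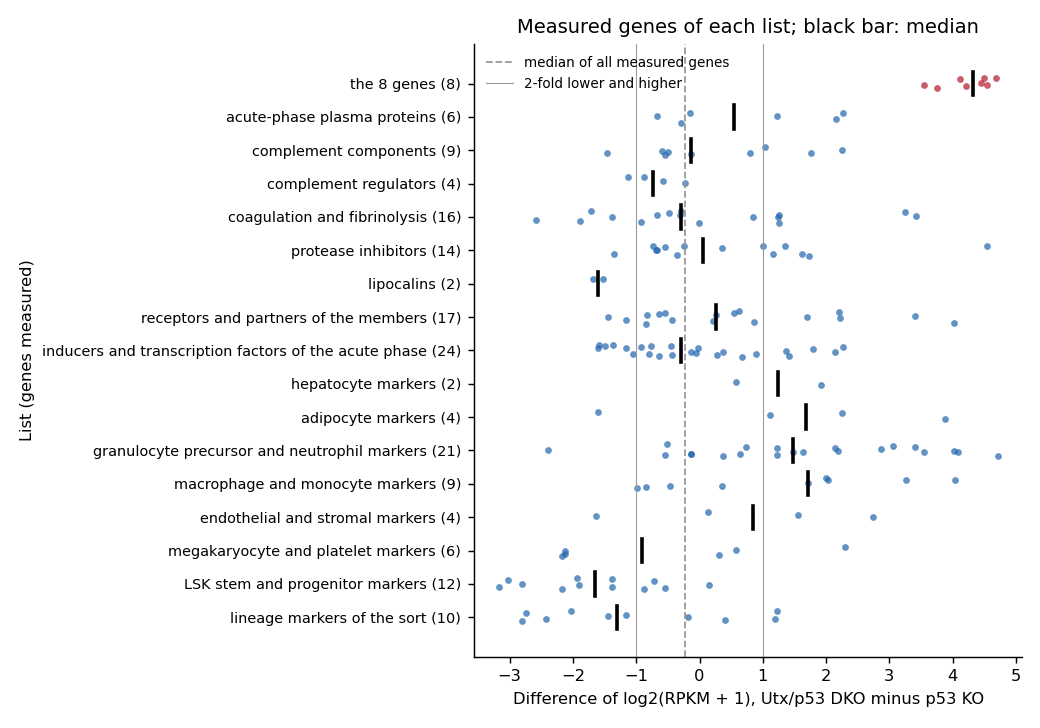
Difference of log2(RPKM + 1), Utx/p53 DKO minus p53 KO, of the 8 genes (red) and of the measured genes of each list (blue), with the number measured in brackets and black bars for medians. The dashed line is the median of all measured genes, -0.24, and the solid lines mark 2-fold.

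Markers of the cell types that make these proteins moved with them in part, and their share in the result was not tested. Hepatocyte markers were mostly near 0: 14 of 17 were under 1 RPKM in both libraries, 10 were at 0 in DKO and 3 at 0 in p53 KO cells, and albumin (Alb) had 4 reads in DKO and 8 in p53 KO cells. Their summed RPKM of 261 in DKO and 74.3 in p53 KO cells was nearly all Trf, the transferrin gene, at 258 and 67.6 RPKM. Fah was at 3.23 and 1.85 RPKM and Tdo2 at 0.0615 and 1.86 RPKM. Adipocyte markers summed to 57.8 RPKM in DKO and 11.99 RPKM in p53 KO cells, 7 of 12 being under 1 RPKM in both libraries, with Adipoq at 8 reads in DKO and 5 in p53 KO cells and Plin1 at 0 and 4 reads. Of the 4 measured adipocyte genes, Lpl, the lipoprotein lipase that macrophages also make, was at 47.0 and 2.25 RPKM. Cfd and Fabp4 (2.74 and 0.730 RPKM) were higher, and Lipe was lower at 1.57 and 6.82 RPKM. Cfd and Fabp4 passed the filter through their DKO values alone. With a pseudocount of 5, 1 adipocyte gene was at least 2-fold higher and 0 lower. The all-gene shares were 6.6% higher and 13.5% lower at the pseudocount of 1.

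Part of the myeloid markers were higher together with the 8 genes. Over all measured genes, 6.6% were at least 2-fold higher and 13.5% lower. Of 21 measured markers of granulocyte precursors and neutrophils, 13 were at least 2-fold higher, 1, Ltf, was lower and 7 were within 2-fold (median 1.48), and their summed RPKM was 58401 in DKO and 5562 in p53 KO cells. The largest differences were those of Chi3l3, Cd177, Elane and Lyz2, the lysozyme gene, at 15319 and 1302.5 RPKM. Of 9 measured macrophage and monocyte markers 5 were at least 2-fold higher, 4 within 2-fold and 0 lower (2 lower with equal totals; median 1.72, but -0.011 without the filter on low values), and the summed RPKM of the list was 15360 in DKO and 988 in p53 KO cells, nearly all of it Ly6c2 (15136 and 919.5 RPKM). The others with large differences were Vcam1 (32.2 and 2.45 RPKM), Csf1r (34.3 and 7.61) and Cd68 (126 and 30.8), while 8 of the 17 listed were under 1 RPKM in both libraries. Among the 5 higher macrophage and monocyte markers, 1 passed the filter through its DKO value alone. Lyz2 and Ly6c2 have close copies and their values are uncertain.

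Other markers went different ways, beside all-gene shares of 6.6% higher and 13.5% lower. Of the 4 measured endothelial and stromal markers, Flt1 (13.1 RPKM in DKO, 1.0996 in p53 KO cells) and Pecam1 (49.4 and 16.1) were higher, Emcn (2.65 and 10.4) lower and Pdgfrb (5.15 and 4.60) within 2-fold, and the list summed to 74.0 RPKM in DKO and 35.3 RPKM in p53 KO cells. Of 6 measured megakaryocyte and platelet markers (median -0.91, but 0.30 with a filter at 5 RPKM or with summed transcripts) 1 was higher, Selp at 32.2 and 5.75 RPKM, and 3 lower, among them Itga2b (0.949 and 7.54) and Gp9 (1.11 and 8.23), with sums over the list of 75.3 and 105 RPKM. Itga2b passed the filter through its p53 KO value alone. Of 12 LSK markers 0 were at least 2-fold higher and 8 lower (median -1.65), with summed RPKM of 510 in DKO and 1140 in p53 KO cells, led by Flt3 (1.83 and 24.5 RPKM), Meis1 (15.7 and 134) and Cd34 (49.1 and 348). Of 10 measured genes of the sort's lineage markers and of lymphoid cells 2 were higher (0 with equal totals) and 6 lower (median -1.30; summed RPKM 117 in DKO and 246 in p53 KO cells), with Cd79a at 14.4 and 106 RPKM and Il7r at 4.35 and 20.8 RPKM. Among these 6 lower genes, 2 passed the filter through their p53 KO values alone.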

How the data were processed

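Gene expression was measured by RNA-seq in 2 libraries of LSK cells, 1 per genotype. Per the labels' protocols, poly(A) RNA was turned into cDNA by SMART chemistry and amplified, which can distort low values. TopHat2 2.1.0, bcl2fastq 1.8.4 and build mm9 are named in the submitters' processing notes. The authors deposited RPKM values of 28344 transcripts from gfold 1.1.4 (per the file headers), with log2 fold changes, GFOLD values and q-values (1 throughout). The header lists WT-LSK (titled p53 KO) first and KO-LSK (titled Utx/p53 DKO) second, and the RPKM columns were assigned in that order. RPKM is scaled by read totals, whereas the authors' log2 values use constants of 1.30144 (p53 KO) and 1 (DKO), a shift of 0.602. The treatment of multi-mapping reads is not given in the labels or headers.

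A symbol with several transcripts was represented by its most abundant one, and genes whose mean reached 1 RPKM were called measured. Differences are of log2(RPKM + 1), which understates low genes. Whole reads were recovered from RPKM by searching the transcript length at which both values are whole and give the authors' fold change; 1 solution was found for 96.3% of 24644 transcripts with reads, including all 8 genes, and on 600 simulated transcripts 597 had 1 solution, which was right in each. PCR reads without molecular identifiers are not independent molecules, so exact 95% intervals cover counting error alone. Python 3.11.15, scipy 1.17.1 and pandas 2.3.3 were used. Symbols absent from the table were matched through RefSeq accessions, the order of genes was read from RefSeq's GRCm38.p6 table, which placed 97.6% of the measured genes, and 316 of 319 list entries were found.

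The genes and lists were chosen with earlier results of these data known. Named were the 8 genes, their paralogs, Kdm6a, Trp53, up to 4 genes per list with the largest absolute difference, the 2 nearest genes in level and the adjacent genes; Ngp, Camp, Ltf, Kit, Ly6a, Wfdc17, Wfdc18, Spint2, Alb, Adipoq, Plin1, Crp, Fga, Fgb, F3, Cd163, Itgam, Tdo2, Il1b, Tnf, Osm, Il6, Stat3, Socs3, Cebpd, Proz, Atp11a and the motifs searched were chosen after values were seen. Alternatives were pseudocounts of 0.1 and 5, a filter at 5 RPKM or none, 4 scalings, summed transcripts and rules of 3-fold and 1.5-fold. Some genes with the largest differences in their list are not reported here.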

Additional observations from a re-analysis of the deposited data

How the results depend on the processing

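All 8 genes remained at least 2-fold higher in DKO cells under each of the 11 alternatives, and their differences of log2(RPKM + 1) lay between 2.32 and 5.29. Their median difference of 4.33 was 4.54 with a pseudocount of 0.1, 3.64 with a pseudocount of 5, 4.93 with the authors' gfold constants and 3.95 with equal totals. With those constants the RPKM ratios ran from 17.9 (Lcn2) to 53.8 (Orm1). The background moved more: against 750 higher and 1528 lower genes there were 426 and 476 with a pseudocount of 5, 1873 and 712 with the authors' constants, 498 and 2709 with equal totals, 369 and 493 by a 3-fold rule, and 1481 and 3363 by a 1.5-fold rule; with a mean of at least 5 RPKM, 835 were lower. Without the filter on low values the median of the hepatocyte markers was -0.22 instead of 1.24, and that of the macrophage and monocyte markers -0.011 instead of 1.72, since genes near 0 then entered both lists. No paired analysis was possible because there was 1 library per genotype, and leaving out a library was not possible for the same reason. Depth limits Saa3 and Orm1, with 8 and 22 reads in p53 KO cells.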

Other observations

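The 8 genes shared the range of increase from rank 1 to rank 34 with 26 others, chosen here after their values were seen. A few are given here by their values, with no theme tested. Ly6i, of the Ly6 surface protein family, led the range at 269 RPKM in DKO and 3.87 RPKM in p53 KO cells. Mcemp1, listed in the table as 1810033B17Rik and known as a membrane protein of mast cells and myeloid cells, was at 105 and 7.60 RPKM. Clec5a, a myeloid lectin receptor gene, was at 110 RPKM in DKO and 7.70 RPKM in p53 KO cells. The metal-binding protein gene Mt1 was at 389 and 25.2 RPKM and the glutathione transferase gene Gstm2 at 42.1 and 1.68 RPKM. Ncam1, a neural cell adhesion molecule gene also used by blood cells, was at 60.8 RPKM in DKO and 3.57 RPKM in p53 KO cells. Members of the Ly6 and Gstm families share sequence, so their values are uncertain.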
